A study of Mus musculus with 6 samples.

Results

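Lysosomal cathepsins, the asparaginyl protease legumain and the cystatins that inhibit them were followed as 10 genes in nuclei of the neonatal mouse brain after injection of lysophosphatidic acid (LPA) or vehicle. The genes were chosen by symbol from the 32285 genes counted, and all 10 were found: Ctsa, Ctsb, Ctsd, Ctsk, Ctsl, Ctss, Ctsz, Lgmn, Cst3 and Cst7. C57BL/6 S-56 neonates received 5 µl of LPA (18:1), carried in phosphate-buffered saline that held albumin without fatty acids at 0.01%, or of the albumin carrier alone into the right lateral ventricle on postnatal day 7, and brains without olfactory bulbs and cerebellum were taken on day 15. Whether the LPA of these libraries was 1 mM or 5 mM is not given in the sources used here. Nuclei were stained for the neuronal protein NeuN, the NeuN-negative nuclei were sorted, and 6 single-nucleus libraries were made, 3 from LPA-injected and 3 from vehicle-injected brains, 1 brain each. Nuclei and not whole cells were therefore measured, and free RNA can be captured beside them. Counts are in unique molecular identifiers (UMIs), each of which stands for 1 captured RNA molecule.

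Cathepsins B, L, S, Z and K are cysteine proteases, cathepsin D is an aspartic protease and cathepsin A is a serine carboxypeptidase, and all of them work mainly in acidic endosomes and lysosomes, where they break down proteins that a cell has taken up or discarded. Legumain cuts after asparagine and takes part in the maturation of several cathepsins. Cystatins block cysteine cathepsins: cystatin C (Cst3) is secreted by many cells and is abundant in cerebrospinal fluid, while cystatin F (Cst7) is made by immune cells. Microglia, the resident phagocytes of the brain, are known for high levels of these proteases.

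After filtering, 57443 nuclei remained, and 48365 of them could be assigned to a cell type by marker genes. Per library the deposited UMIs summed to 48852970 to 65688644. Although sorted as NeuN-negative, the libraries held 14362 nuclei with neuronal markers, in which Rbfox3, the gene of NeuN, reached 376 to 453 UMIs per 1000000 UMIs of those nuclei. Immune cells were 2116 nuclei, and made up 5.20 to 5.99% of nuclei in the LPA libraries against 1.12 to 3.32% in the vehicle libraries. Among them were 1277 homeostatic microglia, 516 activated microglia, 209 macrophages and 70 interferon-responsive microglia. Nuclei grouped as activated microglia came almost wholly from LPA: 126, 195 and 194 nuclei from LPA libraries 1 to 3, against 0, 0 and 1 nuclei from vehicle libraries 1 to 3. The 1 vehicle nucleus had 0 UMIs of Gpnmb, P2ry12 and Cx3cr1, and it is described under the other observations. Of 57061 barcodes kept, 370 occurred in more than 1 library, and of the 248 shared ones in named types 47 fell in the same type.

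The genes lie at the following places of the mouse genome (mm10, GENCODE M21 annotation, from the start to the end of each gene with its introns). Ctsa (ENSMUSG00000017760) is at chr2:164832873-164841032, Ctsz (ENSMUSG00000016256) at chr2:174427493-174439039, Cst3 (ENSMUSG00000027447) at chr2:148871722-148875692 and Cst7 (ENSMUSG00000068129) at chr2:150570415-150578944. Ctsk (ENSMUSG00000028111) at chr3:95499256-95509362 and Ctss (ENSMUSG00000038642) at chr3:95526786-95556403 are neighbours on the same strand, with 17423 bases between them. Ctsb (ENSMUSG00000021939) is at chr14:63122462-63145923, Ctsd (ENSMUSG00000007891) at chr7:142375911-142388038, Ctsl (ENSMUSG00000021477) at chr13:64359337-64370890 and Lgmn (ENSMUSG00000021190) at chr12:102394084-102439813. Parts of Ctsa, Ctsb, Ctsl and Ctsz overlap genes on the opposite strand that were also counted (Neurl2 and Pltp, Fdft1, Gm47123, and Nelfcd), and the study's methods state counting at the default settings of Cell Ranger, which assign a read to a gene by strand.

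Lysosomal genes often carry the E-box letters CACGTG near their start, to which the factor TFEB can bind. In RefSeq promoters (GRCm38.p6) CACGTG, which reads the same on both strands, was searched in the 250 bases before each transcript start. It was present in 4 of the 11 windows of the 9 genes that matched a promoter (1 each of Ctsa, Ctsd, Ctsl and Lgmn), against 6.02% of all 32851 windows, and Ctsd held it at 2 places, as did 0.429% of windows. Ctsa and Lgmn each had another window, at a transcript start farther upstream, that did not hold it. The AP-1 letters TGANTCA (6.75% of windows) and the PU.1 letters GAGGAAGT (2.44% of windows), each searched on both strands, were in none of the 11 windows of these genes. The matches are shown because 3 of these 4 genes (Ctsa, Ctsd and Ctsl) are among those called higher in immune cells below. Of the others called higher there, Ctsb matched no promoter and was not searched, and the window of Ctsz held no CACGTG. A link between the letters and the change was not tested. Capitals mark the CACGTG, the sequences run 5′ to 3′ on the strand of the gene, and a match is a description of letters only. Apart from the first Ctsd stretch, each stretch lies inside the span given above for its gene. Such a stretch is upstream of the transcript start used, and not of the whole gene.
Ctsa, chr2:164833743-164833772, plus strand, the match beginning 12 bases before the start: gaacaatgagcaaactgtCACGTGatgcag
Ctsd, chr7:142388048-142388077, minus strand, 245 bases before the start: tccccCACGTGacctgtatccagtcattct
Ctsd, chr7:142387908-142387937, minus strand, 98 bases before the start: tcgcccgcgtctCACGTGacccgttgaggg
Ctsl, chr13:64370739-64370768, minus strand, 236 bases before the start: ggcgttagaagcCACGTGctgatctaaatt
Lgmn, chr12:102439124-102439153, minus strand, 49 bases before the start: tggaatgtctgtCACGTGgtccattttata

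Levels by cell type were first described in the vehicle libraries, as CPM, that is UMIs of the gene per 1000000 UMIs of that cell type in that library, before any scaling between libraries. Each gene was compared only with itself across types, because gene lengths differ. For 6 of the 9 genes with enough UMIs the highest type was homeostatic microglia, for Ctsb and Ctsa it was macrophages, and for Ctsk it was meningeal cells. The mean Ctss level was 465 CPM ± 43.6 (SD, n = 3) in homeostatic microglia and 203 CPM ± 10.7 in macrophages, and the next type, ependymal cells, had 5.42 CPM. Of the 9 genes Ctss was the most nearly limited to immune nuclei, and the libraries of these 3 types did not overlap. Ctsd was at 732 CPM ± 124 in homeostatic microglia, 190 CPM ± 82.2 in macrophages and 72.2 CPM ± 14.6 in astrocytes, again without overlap.

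Ctsz had the same order at its top, with 143 CPM ± 30.6 in homeostatic microglia, 68.5 CPM ± 32.0 in macrophages and 31.5 CPM ± 7.42 in pericytes, and no overlap between neighbours. Of the genes followed here, Ctsb was the only protease clearly higher in macrophages, at 587 CPM ± 99.8 against 207 CPM ± 54.0 in homeostatic microglia and 74.8 CPM ± 16.5 in astrocytes. For Ctsa, macrophages (247 CPM ± 48.4) and homeostatic microglia (186 CPM ± 52.9) overlapped. Ctsl was spread most widely, with 138 CPM ± 11.2 in homeostatic microglia, 95.9 CPM ± 6.89 in astrocytes and 66.6 CPM ± 7.23 in oligodendrocytes, and below homeostatic microglia every neighbouring pair of types in the order overlapped.

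Lgmn stood at 1404 CPM in homeostatic microglia and 455 CPM in macrophages, and oligodendrocytes came next with 165 CPM, each apart from its neighbours in the order. Cst3 had 2 high types of quite different origin, homeostatic microglia (2039 CPM) and astrocytes (1740 CPM), whose libraries overlapped, and macrophages followed with 501 CPM. Ctsk, the collagen-degrading cathepsin of osteoclasts and fibroblasts, was low everywhere, at 22.6 CPM in meningeal cells, 14.2 CPM in pericytes and 13.1 CPM in oligodendrocytes. For Ctsk the libraries of pericytes overlapped with those of both other types, meningeal cells and oligodendrocytes did not overlap, and the next type did not overlap with oligodendrocytes. Cst7 had 34 UMIs in all 57443 nuclei.

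**Figure D1:**
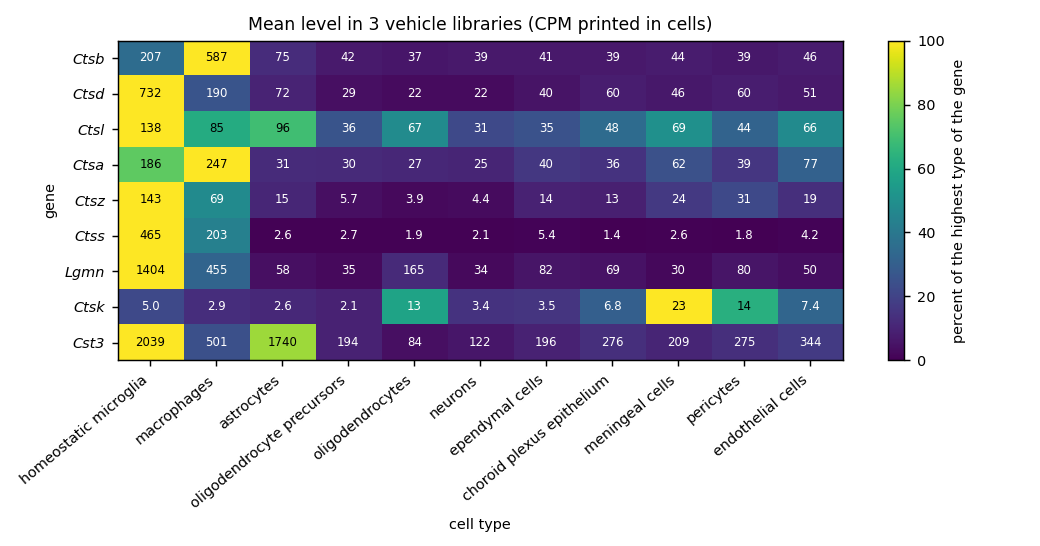
Mean level of 9 genes (rows) in 11 cell types (columns) over the 3 vehicle libraries. The printed number is CPM, and the colour is the percent of the gene's own highest type, so colours may be compared along a row only. Homeostatic microglia are brightest for 6 genes, Ctss is near 0 outside immune nuclei, Cst3 is high in both homeostatic microglia and astrocytes, and Ctsk is brightest in meningeal cells.

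In the immune nuclei as a whole, 5 proteases were higher and the inhibitor Cst3 was lower in LPA than in vehicle libraries. Each gene was tested by edgeR's quasi-likelihood test on UMIs summed per library, and was called where the adjusted p was under 0.05 and the fold change was 0.25 or more, up or down, on the log2 scale. Of the 8 genes with enough counts, 6 were called, 5 higher and 1 lower in LPA, against 6.11% of all 9618 genes tested in immune cells (3.77% higher and 2.34% lower). The median log2 fold change of the 8 was 0.55, and that of all genes was -0.02. Ctsk and Cst7 did not pass the filter on low counts. In the same sums the 13 markers of activated microglia, none at 0, reached 3464 to 4908 CPM in LPA and 1657 to 1957 CPM in vehicle libraries, and the 11 markers of macrophages, none at 0, 2954 to 3449 CPM against 4014 to 5018 CPM.

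Ctsb, which encodes cathepsin B, had the largest rise among the members. Its level was 635, 728 and 900 CPM in LPA libraries 1 to 3 and 332, 238 and 277 CPM in vehicle libraries 1 to 3. The lowest LPA library lay above the highest vehicle library, and the log2 fold change was 1.46 (SE 0.14, edgeR adjusted p = 8.75e-08). Ctsl stood at 201, 210 and 210 CPM in LPA and 89.5, 135 and 136 CPM in vehicle libraries, again with no overlap, a change of 0.75 (SE 0.15, edgeR adjusted p = 0.00155).

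Ctsz, a carboxypeptidase among the cysteine cathepsins, was at 185, 203 and 214 CPM in LPA and 141, 127 and 109 CPM in vehicle libraries, without overlap, and rose by 0.67 on the log2 scale (SE 0.15, edgeR adjusted p = 0.00349). Without vehicle library 2 its change was 0.69 and was no longer called (edgeR adjusted p = 0.0585). Ctsd was at 711, 814 and 949 CPM against 682, 567 and 462 CPM, with LPA 1 just above vehicle 1. Its change was 0.53 (SE 0.13, edgeR adjusted p = 0.0104). The call was lost without LPA 3 (0.42, edgeR adjusted p = 0.121), without vehicle 2 (0.53, edgeR adjusted p = 0.0571) or without vehicle 3 (0.43, edgeR adjusted p = 0.0593).

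Ctsa, the protective protein of lysosomal sialidase and galactosidase, had the weakest of the 5 calls, at 223, 266 and 313 CPM in LPA and 217, 155 and 196 CPM in vehicle libraries. The gap between LPA 1 and vehicle 1 was small, and the change of 0.58 (SE 0.15, edgeR adjusted p = 0.0206) lost its call without LPA 2 (0.58, edgeR adjusted p = 0.0615), without LPA 3 (0.45, edgeR adjusted p = 0.15) and without vehicle 2 (0.39, edgeR adjusted p = 0.364). With the same number of nuclei from each library it was 0.57 (edgeR adjusted p = 0.165), and DESeq2 gave 0.55 with an adjusted p of 0.135, so that the Ctsa call was lost in 5 of the 14 alternatives run on all immune nuclei.

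Lgmn and Ctss did not pass the test in immune nuclei. Lgmn was at 1309, 1311 and 1356 CPM in LPA and 1214, 1078 and 1033 CPM in vehicle libraries, which did not overlap, with a change of 0.27 (SE 0.10, edgeR adjusted p = 0.143). Leaving out vehicle 1 brought it to 0.33 (edgeR adjusted p = 0.0482). Ctss was at 364, 341 and 342 CPM against 358, 418 and 397 CPM, with overlapping groups and a change of -0.17 (edgeR adjusted p = 0.495).

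Cst3, the inhibitor, moved the other way. It was at 815, 770 and 620 CPM in the immune nuclei of LPA libraries 1 to 3 and at 1653, 1902 and 1256 CPM in those of vehicle libraries 1 to 3, so that every LPA library lay below every vehicle library. The log2 fold change was -1.13 (SE 0.13, edgeR adjusted p = 9.67e-07).

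How much of this came with the activated microglia, which the vehicle libraries lacked, was asked by summing the other immune nuclei alone, a comparison chosen after the data were seen. Of 8 genes 2 were then called, against 0.596% of 8396 genes: Cst3 (-0.70, edgeR adjusted p = 0.00169) and Ctsb (0.57, edgeR adjusted p = 0.0460). Ctsl had 0.33 (edgeR adjusted p = 0.669), Ctsz 0.17 (edgeR adjusted p = 0.870), Ctsd 0.14 (edgeR adjusted p = 0.864) and Ctsa 0.00 (edgeR adjusted p = 1.00). Ctss, which was at 409, 413 and 396 CPM against 358, 418 and 408 CPM in these nuclei, had 0.03 (edgeR adjusted p = 0.980).

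Activated microglia could be described only within the LPA libraries, since the vehicle libraries gave only 1 nucleus that clustered with them. The nuclei of activated microglia were set apart by clustering, so their levels are given beside those of homeostatic microglia of the same library without a test. Ctsb was at 1172, 1251 and 1400 CPM in the activated microglia of LPA libraries 1 to 3 and at 350, 371 and 500 CPM in the homeostatic microglia of the same libraries, a ratio of 2.80 to 3.37. It was the highest ratio of the 8 members with enough UMIs. Ctsa had 372, 387 and 436 CPM against 155, 181 and 216 CPM, a ratio of 2.02 to 2.41, and Ctsz had 293, 304 and 281 CPM against 133, 136 and 155 CPM, a ratio of 1.81 to 2.24.

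Ctsd, at 1086, 1092 and 1187 CPM in activated and 625, 718 and 820 CPM in homeostatic microglia, was higher by 1.45 to 1.74 times. Ctsl had 317, 317 and 242 CPM against 168, 154 and 224 CPM, and its ratio ran from 1.08 in LPA 3 to 2.06 in LPA 2. These 5 proteases were higher in activated microglia in each of the 3 LPA libraries.

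Lgmn, Ctss and Cst3 were lower in activated than in homeostatic microglia in each LPA library. Lgmn differed little, with 1254, 1301 and 1288 CPM against 1439, 1413 and 1491 CPM, a ratio of 0.864 to 0.921. Ctss had 272, 227 and 281 CPM against 457, 421 and 393 CPM, a ratio of 0.538 to 0.714. Cst3 had 348, 304 and 305 CPM against 1140, 1223 and 967 CPM, a ratio of 0.248 to 0.315.

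**Figure D2:**
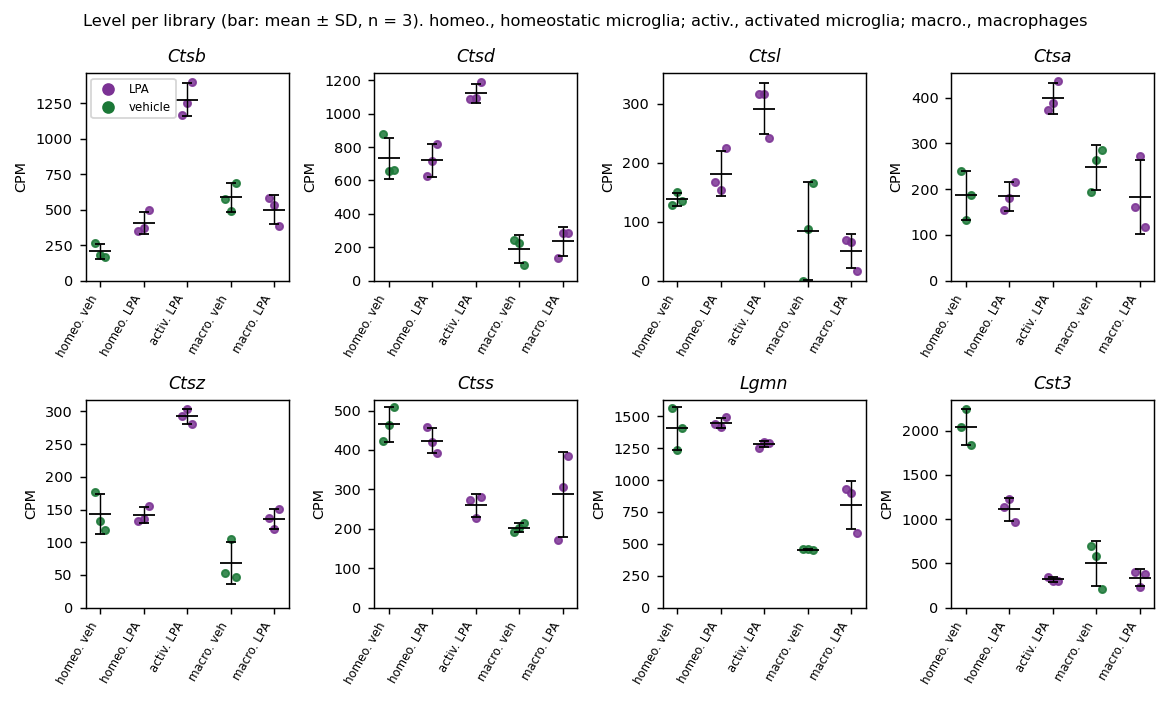
Levels in CPM (vertical axes, from 0) of 8 genes in homeostatic microglia, activated microglia and macrophages, 1 point per library (purple LPA, green vehicle), with the mean and SD of 3 libraries. Activated microglia are shown for LPA only. Ctsb, Ctsd, Ctsa and Ctsz are highest in activated microglia of the 3 microglial groups, and Cst3 steps down from homeostatic microglia of vehicle to those of LPA and again to activated microglia.

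The activated microglia formed 2 sub-clusters, 1 led by Gpnmb (397 nuclei) and 1 led by Ccl3 (119 nuclei, none from a vehicle library). Among the 8 members with enough UMIs, Ctsl set them apart most, with 486, 508 and 421 CPM in the Ccl3-led and 255, 260 and 194 CPM in the Gpnmb-led nuclei of LPA libraries 1 to 3, a ratio of 1.91 to 2.17. Cst3 was also higher in the Ccl3-led nuclei, by 1.21 to 1.44 times, while Lgmn (0.735 to 0.821) and Ctss (0.727 to 0.917) were lower there in each library. For Ctsb the libraries did not share a direction, the ratio being 0.99 to 1.40.

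Cst7 was too sparse for any test, with 7, 6 and 8 UMIs in LPA libraries 1 to 3 and 4, 3 and 6 UMIs in vehicle libraries 1 to 3. Of these, 9 UMIs were in the activated microglia, which is 7.84 CPM over the 3 LPA libraries together (exact Poisson 95% interval 3.58 to 14.9, counting error only), and 8 of the 9 were in the Ccl3-led sub-cluster, at 29.8 CPM (12.9 to 58.8). Homeostatic microglia of LPA libraries held 2 UMIs of Cst7, at 1.44 CPM (0.175 to 5.21), and those of vehicle libraries 1 UMI, at 1.35 CPM (0.0342 to 7.53). In macrophages no UMI was found, which by the same exact interval allows up to 15.5 CPM in LPA and 17.3 CPM in vehicle. The 7.84 CPM of activated microglia lay within both limits, and the 29.8 CPM of the Ccl3-led sub-cluster lay above them.

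In homeostatic microglia 2 of the 8 genes tested were called, Ctsb higher and Cst3 lower in LPA, against 0.673% of 7430 genes (0.310% higher and 0.363% lower). The other 6 had log2 fold changes of -0.14 to 0.31, with edgeR adjusted p-values of 0.691 to 0.988. Ctsl, with the largest of these changes, was at 168, 154 and 224 CPM in LPA and 129, 150 and 136 CPM in vehicle libraries. The 13 markers of activated microglia, none at 0, summed to 999 to 1633 CPM in these nuclei in LPA libraries and to 655 to 920 CPM in vehicle libraries, and the 11 macrophage markers, of which 2 were at 0, to 843 to 1032 CPM and 391 to 569 CPM. Their part in the results was not tested.

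Ctsb was at 350, 371 and 500 CPM in the homeostatic microglia of LPA libraries 1 to 3 and at 269, 183 and 170 CPM in those of vehicle libraries 1 to 3. All LPA libraries lay above all vehicle libraries, and the change was 0.97 (SE 0.17, edgeR adjusted p = 0.000722). It was not called without vehicle library 2, which gave most of the vehicle nuclei (0.83, edgeR adjusted p = 0.148), or with the same number of nuclei drawn from each library (0.95, edgeR adjusted p = 0.0639). Cst3 was at 1140, 1223 and 967 CPM against 2044, 2239 and 1834 CPM, without overlap, with a change of -0.90 (SE 0.12, edgeR adjusted p = 1.86e-06).

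The homeostatic microglia consisted mainly of 2 sub-clusters whose shares differed between the groups. Sub-cluster 1 gave 154, 194 and 95 nuclei in LPA and 98, 258 and 69 nuclei in vehicle libraries, and sub-cluster 2 gave 82, 119 and 103 against 11, 47 and 22 nuclei. Fitted separately, again after the data were seen, Cst3 was called lower in both, with -0.71 (SE 0.13, edgeR adjusted p = 8.56e-05) in sub-cluster 1 and -1.08 (SE 0.19, edgeR adjusted p = 0.00130) in sub-cluster 2.

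Ctsb was called in sub-cluster 2 and not in sub-cluster 1. In sub-cluster 2 it was at 599, 680 and 811 CPM in LPA and 404, 247 and 220 CPM in vehicle libraries (1.40, SE 0.27, edgeR adjusted p = 0.00406), and in sub-cluster 1 it was at 231, 193 and 191 CPM against 252, 174 and 148 CPM (0.11, SE 0.20, edgeR adjusted p = 0.959). The vehicle values of sub-cluster 2 rested on 6, 16 and 6 UMIs, and the difference between the sub-clusters was not tested. In sub-cluster 1, 1 of 8 genes was called against 0.293% of 5114 genes, and in sub-cluster 2, 2 of 8 against 0.530% of 2640 genes. Ctsl had opposite signs, -0.45 in sub-cluster 1 (edgeR adjusted p = 0.774) and 1.12 in sub-cluster 2 (edgeR adjusted p = 0.311).

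Within the LPA libraries, sub-cluster 2 had higher levels of 5 proteases than sub-cluster 1 and lower levels of Ctss, Lgmn and Cst3, each in the same direction in 3 of 3 libraries and given without a test. Ctsb was higher by 2.60 to 4.24 times, Ctsl by 1.79 to 4.56 times, Ctsz by 1.56 to 2.44 times, Ctsa by 1.18 to 2.71 times and Ctsd by 1.20 to 1.44 times. The ratio was 0.772 to 0.798 for Ctss, 0.947 to 0.959 for Lgmn and 0.596 to 0.759 for Cst3.

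In macrophages none of the 6 genes tested was called by edgeR (2 of them at an unadjusted p under 0.05, 0 by DESeq2), against 0.275% of 1821 genes. Lgmn came nearest, at 927, 897 and 584 CPM in LPA libraries and 456, 456 and 452 CPM in vehicle libraries. The groups did not overlap, and the change was 0.77 (SE 0.24, edgeR adjusted p = 0.286). Ctsb was at 584, 536 and 384 CPM against 579, 491 and 691 CPM (-0.24, edgeR adjusted p = 0.882), and Cst3 at 401, 230 and 384 CPM against 702, 588 and 214 CPM (-0.72, edgeR adjusted p = 0.692), both with overlapping groups. Only 22 to 63 macrophages came from each vehicle library and 29 to 39 from each LPA library, and the vehicle sums of the 11 choroid plexus markers ranged from 143 to 1737 CPM against 83.5 to 103 CPM in LPA, 2 of the 11 being at 0.

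Whether the effect of LPA on a gene differed between homeostatic microglia and macrophages was tested directly, with 0 of 8 genes called by edgeR (2 at an unadjusted p under 0.05) against 0.361% of 3598 genes. For Ctsb the difference was 1.10 on the log2 scale (SE 0.31, edgeR adjusted p = 0.161). No DESeq2 fit was made for differences between types.

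In astrocytes Cst3 was lower in LPA as well, and no protease was called higher. Of 9 genes tested 2 were called, both lower in LPA, against 7.87% of 14608 genes (3.07% lower). Cst3 was at 991, 982 and 1049 CPM in the astrocytes of LPA libraries 1 to 3 and at 2080, 1718 and 1424 CPM in those of vehicle libraries 1 to 3. The LPA libraries were close together and lay below all vehicle libraries, with a change of -0.77 (SE 0.09, edgeR adjusted p = 4.11e-05).

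Ctsl was at 66.0, 68.1 and 66.5 CPM in LPA and 103, 96.4 and 88.9 CPM in vehicle astrocytes, without overlap, and fell by 0.50 on the log2 scale (SE 0.08, edgeR adjusted p = 0.000338). Ctsb, at 60.9, 65.1 and 66.9 CPM against 93.8, 63.6 and 67.1 CPM, overlapped between the groups, vehicle 1 standing above the rest (-0.18, SE 0.11, edgeR adjusted p = 0.399). Ctsd, Ctsa, Ctsz, Ctss, Ctsk and Lgmn had changes of -0.13 to 0.49 and overlapping groups.

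Cst3 was called in each of the 3 astrocyte clusters fitted alone after the data were seen. The cluster led by Grin2c, with 2 of 9 genes called against 2.60% of 12843 genes, had 1159, 1123 and 1202 CPM in LPA and 2449, 1846 and 1574 CPM in vehicle libraries (-0.71, edgeR adjusted p = 0.000342). The cluster led by Slc6a11 (2 of 7 called, against 0.441% of 11338 genes) had 878, 953 and 918 CPM against 1514, 1424 and 1140 CPM (-0.54, edgeR adjusted p = 0.000942). The cluster led by Gfap, a gene that reactive astrocytes raise, had 1 of 7 called against 9.45% of 10712 genes.

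In the Gfap-led cluster Cst3 was at 814, 740 and 836 CPM in LPA and 1662, 1785 and 1400 CPM in vehicle libraries (-0.92, edgeR adjusted p = 6.98e-06). That cluster made up 5.13 to 5.67% of nuclei in LPA and 1.78 to 2.35% in vehicle libraries, and in vehicle libraries its Cst3 level lay within the range of the other clusters. Ctsl changed by -0.50 (edgeR adjusted p = 0.0062) in the Grin2c-led, -0.50 (edgeR adjusted p = 0.0465) in the Slc6a11-led and -0.39 (edgeR adjusted p = 0.157) in the Gfap-led cluster, so that it was not called in the last.

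**Figure D3:**
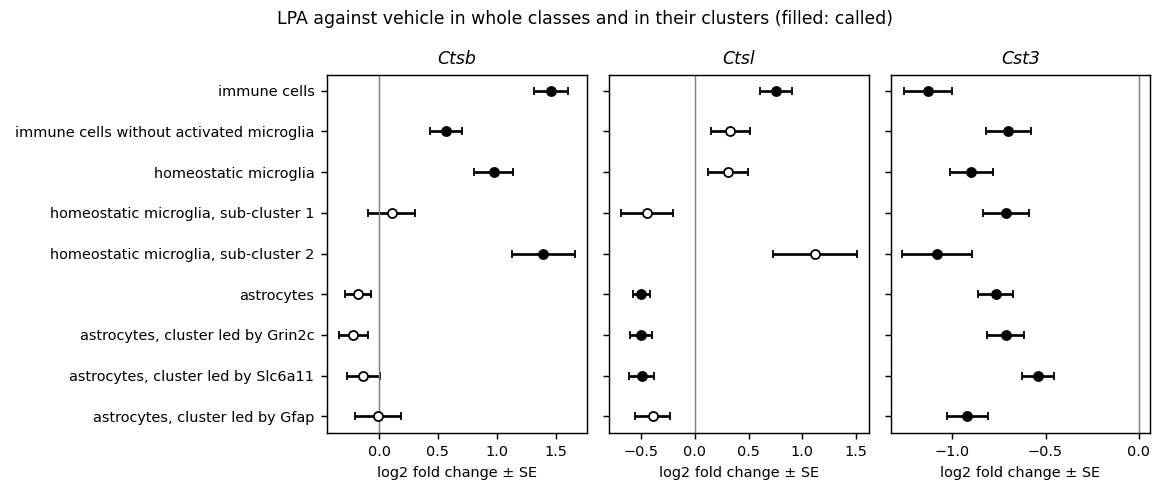
Log2 fold change, LPA against vehicle, with its standard error (horizontal axes, a separate scale for each gene) for Ctsb, Ctsl and Cst3 in whole classes and in the clusters that make them up; filled points were called. Cst3 is left of 0 and filled in all 9 fits, Ctsb is filled in 4 fits, all of immune nuclei, and Ctsl lies right of 0 in immune cells as a whole and left of 0 in the 4 astrocyte fits.

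The difference between immune cells and astrocytes in the effect of LPA was tested in 1 model, with the activated microglia kept in the immune sums. Of 8 genes 5 were called, all with the effect in immune cells the more positive, against 3.34% of 14145 genes: Ctsb (difference 1.64 on the log2 scale, SE 0.14, edgeR adjusted p = 4.35e-21), Ctsl (1.28, SE 0.17, edgeR adjusted p = 8.08e-10), Ctsz (0.84, SE 0.21, edgeR adjusted p = 0.00555), Ctsd (0.63, SE 0.13, edgeR adjusted p = 0.000198) and Ctsa (0.56, SE 0.18, edgeR adjusted p = 0.0492). Ctsa lost this call without LPA 2 (0.55, edgeR adjusted p = 0.146), without LPA 3 (0.54, edgeR adjusted p = 0.137) or without vehicle 2 (0.43, edgeR adjusted p = 0.428), with RLE scaling (0.53, edgeR adjusted p = 0.0731) and without the filter on low counts (0.58, edgeR adjusted p = 0.0559), that is in 5 of 8 alternatives. The Ctsz call was lost without LPA 2 (0.77, edgeR adjusted p = 0.0596). For Cst3 the difference was -0.34 (SE 0.12, edgeR adjusted p = 0.110), and -0.45 without vehicle 1 (edgeR adjusted p = 0.0261).

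Between homeostatic microglia and astrocytes 2 of 8 genes were called, against 0.350% of 13695 genes, Ctsb with a difference of 1.20 (SE 0.17, edgeR adjusted p = 1.72e-08) and Ctsl with 0.90 (SE 0.20, edgeR adjusted p = 0.00568). The shares of the homeostatic sub-clusters, which differed between LPA and vehicle as given above, cannot be told apart in these differences. The Ctsl call was lost without LPA 3 (0.69, edgeR adjusted p = 0.270), vehicle 1 (0.78, edgeR adjusted p = 0.0916) or vehicle 2 (0.98, edgeR adjusted p = 0.0971). For Cst3 the difference was -0.04 (SE 0.13, edgeR adjusted p = 0.987).

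In the remaining types 2 calls were made, each of 1 gene. In oligodendrocyte precursors (1 of 7 tested, against 0.483% of 11800 genes, 0.398% lower) Cst3 was at 134, 147 and 138 CPM in LPA and 178, 232 and 172 CPM in vehicle libraries, without overlap (-0.46, SE 0.10, edgeR adjusted p = 0.0278). The call was lost without any 1 LPA library (edgeR adjusted p = 0.107 to 0.122) and without vehicle 2 (-0.28, edgeR adjusted p = 0.420). Beside it, the 13 astrocyte markers summed to 4309 to 4547 CPM in LPA and 4611 to 4912 CPM in vehicle precursors, none at 0, and the part of astrocyte RNA in the Cst3 value was not tested.

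In oligodendrocytes (1 of 9 tested, against 5.10% of 14459 genes, 1.70% lower) Ctsk was at 8.59, 9.63 and 8.80 CPM in LPA and 13.2, 12.3 and 13.9 CPM in vehicle libraries. The groups did not overlap, and the change was -0.53 (SE 0.13, edgeR adjusted p = 0.0196). Removing LPA 1, LPA 2, LPA 3 or vehicle 3 ended the call (edgeR adjusted p = 0.0502, 0.0544, 0.0674 and 0.0909), and DESeq2 gave an adjusted p of 0.0640. The 13 meningeal markers, a type where Ctsk is higher, summed in these nuclei to 28.2 to 40.4 CPM in LPA and 55.1 to 67.3 CPM in vehicle libraries, and their part was not tested. Ctsl in oligodendrocytes did not overlap either, with 54.1, 57.0 and 57.7 CPM against 74.2, 59.8 and 65.9 CPM (-0.24, SE 0.08, edgeR adjusted p = 0.0855; -0.31 and 0.0389 without vehicle 2).

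None of the members was called by edgeR in neurons (against 0.0946% of all genes tested there), ependymal cells (3.86%), choroid plexus epithelium (0.0497%), meningeal cells (0.989%), pericytes (0.294%) or endothelial cells (0.0976%). At an unadjusted p under 0.05 there were 3 of 9 tests in neurons, 0 of 7 in ependymal cells, 1 of 7 in choroid plexus, 2 of 8 in meningeal cells, 1 of 7 in pericytes and 0 of 7 in endothelial cells, and DESeq2 called 0 in each. In meningeal cells Ctsb did not overlap, with 55.8, 60.7 and 65.0 CPM in LPA and 50.9, 43.3 and 39.4 CPM in vehicle libraries (0.47, SE 0.15, edgeR adjusted p = 0.158). Ctsk in meningeal cells, where it was highest, was at 23.0, 15.2 and 17.3 CPM against 23.7, 25.3 and 18.9 CPM (-0.32, edgeR adjusted p = 0.724), with overlap.

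The log2 fold change of Cst3 was negative in all 13 sums tested, from -1.13 in immune cells to -0.02 in endothelial cells, and it was called in 4 of them: immune cells, homeostatic microglia, astrocytes and oligodendrocyte precursors. The sums share libraries and are not independent, and immune cells and all nuclei contain other sums. In neurons Cst3 was at 93.1, 98.9 and 84.0 CPM in LPA and 107, 147 and 112 CPM in vehicle libraries, which did not overlap (-0.39, SE 0.11, edgeR adjusted p = 0.529). In endothelial cells it was at 337, 313 and 377 CPM against 339, 366 and 328 CPM, the sign there resting on single libraries, with 0.05 without LPA 2 and 0.02 without vehicle 2.

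Because free RNA from abundant cells can give UMIs in other nuclei, Cst3 was set beside the 13 astrocyte markers. In vehicle libraries neurons had 7.18% of the astrocyte level of Cst3 and 5.00% of the summed level of the markers, and in oligodendrocyte precursors the values were 11.4% and 16.6%. Homeostatic microglia had 119% and 5.91%. In LPA libraries the same pairs were 9.16% and 5.39% in neurons, 13.9% and 17.1% in precursors, and 111% and 6.48% in homeostatic microglia. Other types lay on both sides in vehicle libraries, with 20.2% and 4.46% in endothelial cells and 12.2% and 22.1% in meningeal cells. The part of free RNA in these values was not tested.

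**Figure D4:**
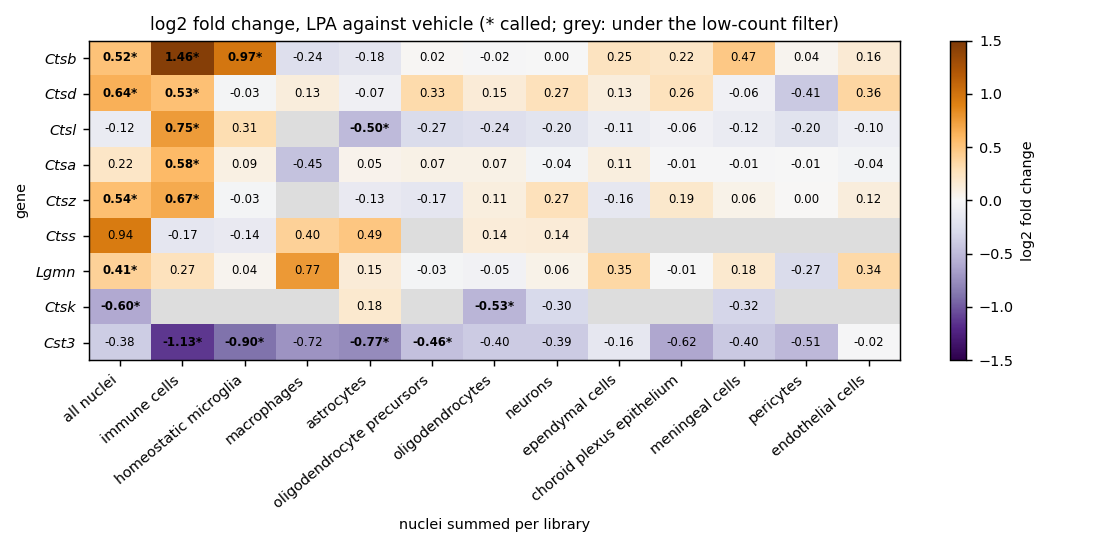
Log2 fold change, LPA against vehicle, of 9 genes (rows) in all nuclei and 12 classes (columns), with orange for higher and purple for lower in LPA, an asterisk and bold type for a call, and grey for genes under the filter on low counts. Calls of Ctsb, Ctsd, Ctsl, Ctsa and Ctsz with higher levels in LPA are in immune sums or in all nuclei, and the Cst3 row is negative throughout.

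Summed over all nuclei, 5 of 9 genes were called, 4 higher and 1 lower in LPA, against 5.62% of 20207 genes (3.41% higher and 2.21% lower). In these sums fewer nuclei of a type and less RNA per nucleus cannot be told apart. Ctsb was at 63.9, 69.8 and 67.9 CPM in LPA and 52.6, 46.5 and 41.9 CPM in vehicle libraries, without overlap (0.52, SE 0.08, edgeR adjusted p = 0.00718), and this call held without any 1 library.

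Ctsd (0.64, edgeR adjusted p = 0.0197), Ctsz (0.54, edgeR adjusted p = 0.0311) and Lgmn (0.41, edgeR adjusted p = 0.0341) were also higher, and none of the 3 overlapped between groups. Lgmn, for example, was at 116, 127 and 109 CPM in LPA and 91.8, 97.8 and 76.7 CPM in vehicle libraries. The Ctsd call ended without any 1 LPA library (edgeR adjusted p = 0.0512 to 0.0727), the Ctsz call without any 1 library but vehicle 2 (0.0576 to 0.102), and the Lgmn call without LPA 1, LPA 2, vehicle 1 or vehicle 3 (0.0549 to 0.120).

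Ctsk was at 5.17, 5.74 and 4.65 CPM in LPA and 7.61, 7.87 and 8.12 CPM in vehicle libraries over all nuclei, and was called lower (-0.60, SE 0.10, edgeR adjusted p = 0.0127), with an edgeR adjusted p of 0.0603 without LPA 1 and 0.0550 without vehicle 3. Meningeal nuclei, the type with the highest Ctsk, were 3.25 to 4.55% of nuclei in LPA and 7.81 to 9.03% in vehicle libraries. Cst3 was at 313, 314 and 271 CPM against 393, 465 and 313 CPM, with LPA 2 slightly above vehicle 3 (-0.38, edgeR adjusted p = 0.130; -0.50 and 0.0380 without vehicle 3). DESeq2 gave this Cst3 difference an adjusted p of 0.0255. Ctss was at 16.4, 16.3 and 12.1 CPM against 6.03, 11.9 and 5.16 CPM, without overlap (0.94, SE 0.28, edgeR adjusted p = 0.0912; 1.44 and 0.00209 without vehicle 2).

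The share of UMIs that came from immune nuclei had a higher mean in LPA for 9 of the 10 genes, Ctsk being the exception. For all genes together, immune nuclei gave 2912781 UMIs in LPA and 1018560 UMIs in vehicle libraries, so a higher immune share is not particular to these genes. How far the members went beyond that was not tested. Immune nuclei gave 21.2 to 27.2% of the Ctsb UMIs of an LPA library and 2.65 to 6.00% of those of a vehicle library. The same shares were 24.8 to 31.4% and 5.60 to 14.4% for Ctsd, 28.0 to 34.6% and 4.71 to 12.2% for Ctsz, and 24.0 to 26.8% and 5.28 to 12.9% for Lgmn. Ctss, the most immune of the genes, had 47.3 to 57.3% and 30.2 to 41.0%. For Cst3, astrocytes were the main source in both groups, with 48.2 to 51.1% of UMIs in LPA and 44.1 to 50.6% in vehicle libraries, and for Ctsk oligodendrocytes gave 28.2 to 36.6% and 32.9 to 38.4%. Immune nuclei gave 3, 1 and 1 of the 213, 251 and 205 Ctsk UMIs of LPA libraries 1 to 3 and 0, 4 and 20 of the 279, 404 and 381 of vehicle libraries 1 to 3, with 19 of the last 20 in the single vehicle nucleus grouped with activated microglia.

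**Figure D5:**
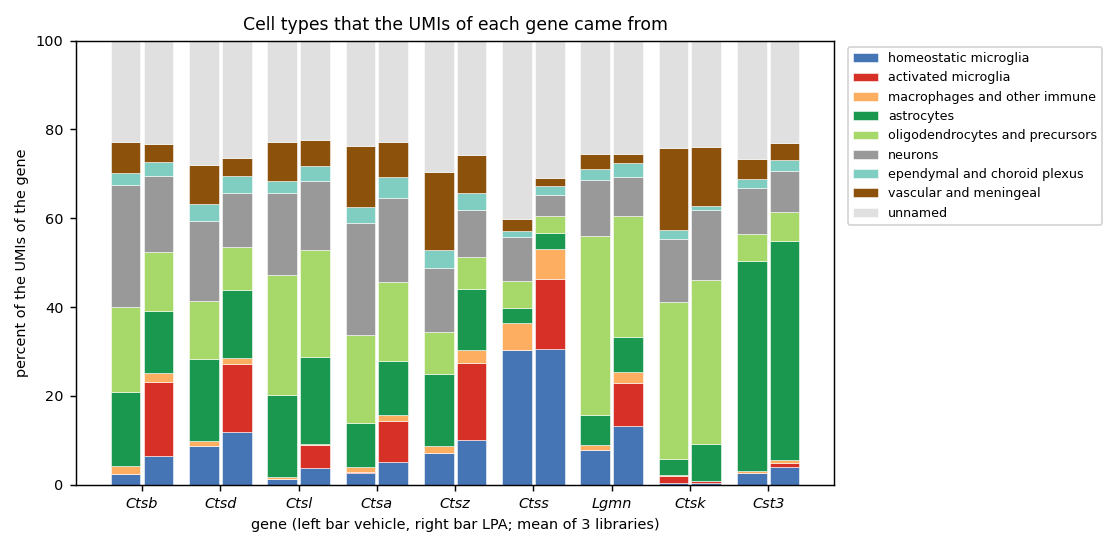
Percent of each gene's UMIs (vertical axis, 0 to 100) by the cell type they came from, mean of 3 libraries, vehicle in the left and LPA in the right bar of each pair. Homeostatic (blue) and activated (red) microglia together widen in LPA for all proteases shown but Ctsk, Cst3 UMIs come mostly from astrocytes (dark green), and the grey tops are nuclei without a type.

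Of the rest of the family, 17 other cathepsin genes of a fixed list gave 42 tests over the 12 types, of which 1 was called (9 at an unadjusted p under 0.05, and DESeq2 called 0 of 35). This was Ctsc, which activates granule serine proteases, in oligodendrocytes, with 8, 10 and 2 UMIs in LPA and 38, 51 and 17 UMIs in vehicle libraries (-2.19, SE 0.45, edgeR adjusted p = 0.00725; -2.14 and 0.0512 without doublets). Ctsc was highest in macrophages, with means of 589 CPM in LPA and 586 CPM in vehicle. The 24 other cystatins and inhibitors gave 18 tests and 0 calls by edgeR (1 at an unadjusted p under 0.05, 0 by DESeq2).

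Genes that deliver proteases to the lysosome or form its membrane (15 genes, 149 tests) gave 1 call, with 20 at an unadjusted p under 0.05 and 0 by DESeq2. It was Lamp1 in astrocytes, at 96.1, 93.7 and 105 CPM in LPA and 136, 112 and 114 CPM in vehicle libraries (-0.27, SE 0.08, edgeR adjusted p = 0.0466), which was lost without LPA 1, LPA 2, vehicle 1 or vehicle 3 (edgeR adjusted p = 0.0646 to 0.196), with equal numbers of nuclei (0.115) and with the replicate number as a block (0.0517). The invariant chain and major histocompatibility class II genes (8 genes, 20 tests), whose products need cathepsin S for peptide loading, gave 0 calls by edgeR, with 5 at an unadjusted p under 0.05 and 0 by DESeq2.

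Genes whose levels ran most closely with a member were sought among 14776 genes over 66 sums (11 types in 6 libraries, which share libraries and depth), by the Pearson correlation of log2(CPM + 1). The 2 nearest were Ccr1 (0.94) and Csf2rb (0.93) for Ctsb, Ptprc and Vav1 (both 0.96) for Ctss, Grn (0.91) and Gm5086 (0.90) for Ctsz, and Gdi2 and Trim30a (both 0.92) for Ctsa. They were Mertk (0.93) and Gna13 (0.89) for Cst3, Zfp710 (0.92) and Ints6l (0.91) for Lgmn, Stx4a (0.86) and Ccdc12 (0.83) for Ctsl, and Plekhh2 (0.72) and Gng11 (0.71) for Ctsk. Cst7 was below 10 CPM in every tested type and had no such search.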

How the data were processed

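Raw UMI counts per gene and barcode were deposited by the authors, who used Cell Ranger 4.0.0 with an mm10 pre-mRNA reference, so intronic reads were counted. The 10 members and all gene lists were chosen with earlier results of these data known. Barcodes with fewer than 300 genes, over 1% mitochondrial UMIs or UMIs above the upper quartile plus 1.5 interquartile ranges of their library were dropped, which kept 87.7 to 91.9% of barcodes per library. Nuclei were clustered (scanpy 1.11.5, leidenalg 0.10.2) on 3000 variable genes from which members, markers and listed genes were left out, without integration, into 41 clusters, and immune clusters again into 16. Clusters were named from a marker list, mixed ones being left unnamed (15.8% of nuclei). Scrublet marked 12.7 to 15.4% of kept nuclei per library as doublets, which stayed in the main sums and were removed in an alternative. Own markers were highest in their own type for all of them in 7 of 9 types, for 11 of 13 in astrocytes and 8 of 9 in oligodendrocyte precursors.

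Counts were summed per library and type, and types with at least 10 nuclei in every library were tested with edgeR 4.0.16 (filterByExpr, TMM, quasi-likelihood, Benjamini-Hochberg over all genes tested; R 4.3.3), after a check on simulated data. CPM values have no TMM scaling. Under random assignment of labels, 3 LPA and 3 vehicle libraries lie apart with a probability of 0.1, so a lack of overlap alone counts as no call. Members are named in every type, listed genes where called (at most 3 per list and type), and the 2 most correlated genes per member (those of Ctsd are not reported here). Each library is 1 brain. Alternatives were RLE scaling, no low-count filter, DESeq2 1.42.0, a replicate block, removal of doublets, clustering at resolution 2, no mitochondrial limit, equal numbers of nuclei, and each library left out. Fits of clusters alone or without activated microglia were added after the data were seen. Unnamed nuclei entered only the sums over all nuclei.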

Additional observations from a re-analysis of the deposited data

Results flagged for a closer look

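In 7 cases the effect of LPA differed between 2 cell types by a direct test. Between immune cells and astrocytes, the effect on the log2 scale was more positive in immune cells by 1.64 for Ctsb, 1.28 for Ctsl, 0.84 for Ctsz, 0.63 for Ctsd and 0.56 for Ctsa, the last with an edgeR adjusted p of 0.0492. Between homeostatic microglia and astrocytes it was more positive in homeostatic microglia by 1.20 for Ctsb and 0.90 for Ctsl. The immune sums held 515 activated microglia from LPA and 1 nucleus grouped with them from vehicle, so a change in cell make-up cannot be told apart there. The homeostatic sums also differed in make-up. Their sub-cluster 2 gave 82, 119 and 103 nuclei in LPA libraries 1 to 3 and 11, 47 and 22 nuclei in vehicle libraries 1 to 3. A change in the shares of sub-clusters cannot be told apart in these sums either. Of 8 alternatives, the call against astrocytes was lost in 5 for Ctsa and 1 for Ctsz in immune cells. For Ctsl in homeostatic microglia it was lost in 3 of 8. In nuclei that were left unnamed for their few UMIs and entered no comparison by type, Ctsd averaged 152 CPM over the LPA libraries (114, 120 and 222 CPM in LPA libraries 1 to 3), above 81.4, 56.8 and 53.0 CPM in vehicle libraries 1 to 3, on 22, 29 and 40 against 8, 10 and 6 UMIs, and this difference was not tested.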

How the results depend on the processing

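For 52 log2 fold changes and differences between types there were 685 alternative values. Of these, 595 kept their direction and side of the threshold, 64 lost a call, 16 gained one and 10 changed sign. Counts of members called are not among these values. A count was taken as moved when it changed by over 1.5 times or to or from 0. It moved in 12 of 14 alternatives in oligodendrocytes and in 7 of 14 in oligodendrocyte precursors. Ctsb, Ctsl and Cst3 in immune cells, Cst3 in homeostatic microglia, Cst3 and Ctsl in astrocytes and Ctsb over all nuclei kept their call in all 14 alternatives run on the whole class. The number of members called ran, with each library left out in turn, from 1 to 6 over all nuclei, 3 to 7 in immune cells (3 without vehicle 2), 1 to 2 in homeostatic microglia (1 without vehicle 2), 0 to 1 in oligodendrocyte precursors, 0 to 2 in oligodendrocytes and 1 to 2 for differences between homeostatic microglia and astrocytes (1 without LPA 3, vehicle 1 or vehicle 2). With equal numbers of nuclei per library it was 1 in homeostatic microglia and 0 in oligodendrocyte precursors and oligodendrocytes, with DESeq2 or without doublets it was 0 in both of the last, and at resolution 2 it was 0 in oligodendrocytes. Without the filter on low counts it was 2 in oligodendrocytes and 1 each in neurons, choroid plexus epithelium and meningeal cells, and without the mitochondrial limit 1 in meningeal cells. Among the fits added later it was 2 in immune cells without activated microglia, 1 in homeostatic sub-cluster 1 and 1 in the Gfap-led astrocyte cluster. These counts stand without the share of all genes called under each setting, so a general gain or loss of calls cannot be told apart. The cause of these changes was not tested.

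Signs that turned were those of Ctss in immune cells without activated microglia (0.031), Ctsl in homeostatic sub-cluster 1 (-0.45), and, without the mitochondrial limit, Ctsk (0.24) and Cst3 (0.67, edgeR adjusted p = 0.0710) in meningeal cells, a class that then held 208 to 423 nuclei per library against 263 to 1061. Cst3 in endothelial cells was 0.0068 without the low-count filter and 0.047 with equal numbers of nuclei, and ran from -0.092 to 0.049 with each library left out (above 0 without LPA 2 or vehicle 2). The difference in Cst3 between homeostatic microglia and astrocytes ran from -0.22 to 0.021 (above 0 without LPA 3 or vehicle 2).

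Whether the replicate numbers pair the libraries could not be decided with 3 libraries per group, and no pairing was used in the main tests. Deviations from the group means over all nuclei correlated at 0.11, 0.24 and -0.03 for same-numbered LPA and vehicle libraries. For differently numbered ones the values were -0.27 to 0.20. With the replicate number as a block the count of members called was 0 in oligodendrocytes and 1 in meningeal cells, Ctss over all nuclei was 1.02 (edgeR adjusted p = 0.0282) and Cst3 over all nuclei -0.36 (edgeR adjusted p = 0.0397). No count of calls could be made for activated or interferon-responsive microglia, since vehicle libraries gave too few nuclei. With 3 libraries per group, small changes in rare types such as macrophages may be missed, and the few UMIs of Cst7 and Ctsk limit both. Most vehicle microglia came from vehicle 2.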

Other observations

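The 1 vehicle nucleus that clustered with the activated microglia, from vehicle library 3, held 19 of the 29 Ctsk UMIs found in 2116 immune nuclei, and no other immune nucleus had more than 1. Of its 4929 UMIs, 16 were of Atp6v0d2, 5 of Mmp9, 3 each of Acp5 and Oscar, and 1 each of Dcstamp and Ocstamp, genes known from osteoclasts and chosen here after their values were seen. It had 6 UMIs of Csf1r and 0 of P2ry12, Cx3cr1 and Gpnmb. Of the other members it had 1 UMI each of Ctsa, Ctsl, Ctsz and Lgmn, and 0 of Ctsb, Ctsd, Ctss, Cst3 and Cst7. It is a single nucleus, and it stayed in the vehicle 3 sums of immune cells and of all nuclei. Its 19 Ctsk UMIs were among the 381 of vehicle 3 over all nuclei, and its part in the Ctsk call there was not tested.

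The 70 interferon-responsive microglia, led by genes such as Helz2 and Oasl2, were 12, 21 and 19 nuclei in LPA and 2, 13 and 3 nuclei in vehicle libraries, too few for a test. In LPA libraries 1 to 3 they had 1784, 1481 and 2119 CPM of Lgmn, and 609, 658 and 445 CPM of Ctss on 14, 24 and 17 UMIs. These values lay above those of homeostatic microglia of the same library. In vehicle libraries the means went the other way, at 959 against 1404 CPM for Lgmn and 417 against 465 CPM for Ctss. The Ctsb level of interferon-responsive microglia in LPA libraries 1 to 3 was 174, 439 and 262 CPM, on 4, 16 and 10 UMIs.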
